A study of Mus musculus with 56 samples.

Results

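The Tnf, Lta and Ltb locus is a cluster of cytokine genes in the class III region of the mouse major histocompatibility complex on chromosome 17, and it was followed here through every ChIP-seq peak that the deposited lists assign to one of the 3 genes by their Gene Name column. The rule found 242 peaks of 1610519 in 56 lists, or 0.0150%, of which 94 carried the name Tnf, 135 Lta and 13 Ltb. A Tnf peak was present in 54 of 56 lists, an Lta peak in 54 and an Ltb peak in 10. The lists came from bone marrow-derived macrophages (BMDMs) of wild-type C57BL/6 mice aged 8 to 12 weeks, differentiated for 6 days with L929 supernatant, and each of 28 groups had 2 samples. In a first experiment of 32 samples, untreated cells and cells given IL-4 (20 ng/ml) for 1 hr were compared for 8 antibodies, against the deacetylases HDAC1 to 3, the acetyltransferase p300, the mark H3K27Ac, the factor PU.1 and both phosphorylated forms of RNA polymerase II (RNAPII-pS2 and RNAPII-pS5). In a second experiment of 24 samples, RNAPII-pS5, RNAPII-pS2 and the NF-κB subunit p65 were compared in ctrl/ctrl, IL-4 PT/ctrl (IL-4 at 20 ng/ml for 24 hr), ctrl/LPS (LPS at 100 ng/ml for 1 hr) and IL-4 PT/LPS cells (IL-4 for 24 hr, then LPS for 1 hr). The LPS dose is as labelled, and the methods of the study state it in another unit. The question was whether IL-4, alone or before an inflammatory signal, changed polymerase, cofactors and p65 at these genes.

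TNF is the main early inflammatory cytokine of macrophages. It is made as a membrane protein, is shed by the protease ADAM17, and signals through the receptors TNFR1 and TNFR2. Lymphotoxin alpha binds the same receptors as a secreted homotrimer, or forms a membrane heterotrimer with lymphotoxin beta that signals through the lymphotoxin beta receptor; both lymphotoxins are known mainly as lymphocyte products that shape lymphoid organs. LPS activates TLR4 and through it NF-κB, whose p65 subunit enters the nucleus and binds κB sites at Tnf. RNA polymerase II phosphorylated on serine 5 of its tail (RNAPII-pS5) marks initiation and early elongation, and the serine 2 form (RNAPII-pS2) marks productive elongation.

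In mm10 (GRCm38, GENCODE M21), Ltb lies at chr17:35194439-35196320 on the plus strand, Tnf at chr17:35199381-35202007 and Lta at chr17:35203165-35205351, both on the minus strand, so that Tnf lies directly downstream of Lta. No peak of these genes, for any antibody, reached to within 100 bp of the Lta start, and 1 peak, of p65, did so at the Ltb start. The 135 peaks named Lta therefore lay upstream of the gene, in the intergenic stretch toward Nfkbil1 (chr17:35220175-35235792). The union of the p300 and p65 peaks defined 11 elements. The Lta -4.9 kb element (chr17:35209738-35210809), which lies 8.3 kb upstream of the Tnf start, overlapped a peak in 54 of 56 lists. The Tnf start (chr17:35201796-35202860) overlapped one in 47 lists, the Lta -14.5 kb element (chr17:35219465-35220238, beside the 3′ end of Nfkbil1) in 46, the Tnf gene body in 43 and the Lta -13.5 kb element (chr17:35218472-35219211) in 29. The element at the Tnf 3′ end (chr17:35198987-35199385) overlapped a peak in 20 lists, the Ltb -1.3 kb element in 8 and the Lta -3.1 kb element in 6. The Ltb body and the Lta -9.5 kb element did so in 3 lists each and the Ltb start in 1. Positions in kb run from the start of the named gene to the centre of an element, and the same element is centred slightly differently for each antibody. Peaks at the Tnf start overlap exon 1, peaks in the Ltb body lie in exon 3 of Ltb, and all peaks named Lta are intergenic in the deposited annotation. Peaks of 1 antibody and experiment that overlapped by at least 1 bp were merged into 62 regions of the locus. Of these, 51 had a peak in at least 2 samples and entered a test, and 11 had a peak in a single sample and are given as scores.

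6 windows of 250 bases from the locus are printed, all on the minus strand, 5′ to 3′. This is the direction in which Tnf and Lta are read. The first is the sequence just before the Tnf start (chr17:35202008-35202257) and the second that just before the Lta start (chr17:35205352-35205601), both from RefSeq promoter records of GRCm38.p6. The other 4 were cut from the GRCm38.p6 genome. These are the Tnf -0.5 kb window (chr17:35202390-35202639), the Lta -5.0 kb window (chr17:35210229-35210478), the Lta -14.5 kb window (chr17:35219656-35219905) and a window past the Tnf 3′ end (chr17:35199026-35199275). The Tnf -0.5 kb window was centred on a κB match found within the bases shared by p65 peaks. The others were centred on such shared bases. Capitals mark a κB, TATAAA or TGANTCA match.
Tnf start: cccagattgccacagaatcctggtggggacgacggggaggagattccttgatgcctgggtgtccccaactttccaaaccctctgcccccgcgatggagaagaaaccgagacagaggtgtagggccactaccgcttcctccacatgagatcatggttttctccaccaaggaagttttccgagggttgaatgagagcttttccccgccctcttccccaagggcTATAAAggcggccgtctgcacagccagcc
Lta start: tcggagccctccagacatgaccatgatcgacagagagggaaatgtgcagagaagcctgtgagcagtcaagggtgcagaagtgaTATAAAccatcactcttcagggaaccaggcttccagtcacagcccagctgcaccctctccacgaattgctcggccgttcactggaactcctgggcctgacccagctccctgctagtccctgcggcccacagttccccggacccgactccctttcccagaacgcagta
Tnf -0.5 kb: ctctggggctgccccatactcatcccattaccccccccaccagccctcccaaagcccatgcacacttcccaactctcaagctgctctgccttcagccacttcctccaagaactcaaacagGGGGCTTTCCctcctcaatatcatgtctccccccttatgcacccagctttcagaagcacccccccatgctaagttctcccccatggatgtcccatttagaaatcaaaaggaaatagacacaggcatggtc
Lta -5.0 kb: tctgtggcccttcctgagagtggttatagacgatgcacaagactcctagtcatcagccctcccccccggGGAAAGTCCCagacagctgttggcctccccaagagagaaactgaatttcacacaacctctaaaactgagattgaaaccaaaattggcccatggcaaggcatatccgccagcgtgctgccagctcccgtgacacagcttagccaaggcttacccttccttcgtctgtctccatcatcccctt
Lta -14.5 kb: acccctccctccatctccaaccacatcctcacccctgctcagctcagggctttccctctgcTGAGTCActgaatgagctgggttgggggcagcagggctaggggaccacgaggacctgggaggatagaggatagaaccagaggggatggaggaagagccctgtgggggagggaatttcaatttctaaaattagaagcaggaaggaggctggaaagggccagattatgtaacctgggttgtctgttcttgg
Tnf 3′ end: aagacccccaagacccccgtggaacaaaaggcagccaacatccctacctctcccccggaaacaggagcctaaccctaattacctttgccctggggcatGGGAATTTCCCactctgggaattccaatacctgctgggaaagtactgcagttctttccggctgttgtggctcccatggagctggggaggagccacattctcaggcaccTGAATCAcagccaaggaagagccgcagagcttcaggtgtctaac

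Motifs were searched on both strands: the κB and STAT consensus sequences (by name), the TATA box as TATAAA, the PU.1 core, the AP-1 site as TGANTCA and the CREB site. The Tnf start window held TATAAA beginning 29 bases before the start, and a PU.1 core (GAGGAA), but no κB match. The only κB match among the 939 bp shared by the 4 p65 peaks of LPS-treated cells at the Tnf start lay 503 to 512 bases upstream of the gene, in the Tnf -0.5 kb window. The Lta -5.0 kb window held 1 κB match, and the window past the Tnf 3′ end held 2 that overlap each other, plus 1 AP-1 site. The Lta -14.5 kb window held an AP-1 site and a PU.1 core and no κB match. A PU.1 core was also present in the Tnf -0.5 kb window. The Lta start held the TATA box 167 bases before the start and a STAT match, and no κB match. In windows of the same length, a κB match was present in 3.90% of 32851 promoters, in 12.6% of 37556 p65 regions and in 25.1% of the 3968 p65 regions with a peak in all 8 samples. These κB shares are no background for the Tnf -0.5 kb window, which was chosen by its match. An AP-1 site was present in 6.75%, 25.6% and 17.1% of these windows, and a PU.1 core in 23.3%, 40.4% and 47.5%. The TATA box was present in 12.4%, 12.0% and 8.97%, and a STAT match in 5.85% of the promoters. The CREB site TGACGTCA, found in 1.55% of promoters, was in none of the 6 windows. A match describes the letters only.

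The number of peaks per list ran from 8440 to 71027, and outside H3K27Ac it is the only record of depth, since the lists hold no reads. For all antibodies but H3K27Ac a peak carries a score that was read as a MACS2 significance on a −log10 scale, so it depends on sequencing depth as well as on the height of the peak. H3K27Ac regions carry normalized tag numbers, whose step of 1 tag gives 28806573 to 32576579 tags per list if they were scaled to the usual total of HOMER. The p300 list of untreated replicate 1 stood apart, with 44787 peaks against 66710 to 69360 in the other 3. For RNAPII-pS2 after 1 hr, all 4 lists have peak names with the other treatment than the label gives, and the groups here follow the labels. The HDAC3 antibody is labelled with the same catalogue number as the H3K27Ac antibody, while the antibody list of the study gives HDAC3 a number of its own, so the libraries are called by their label. The 7 macrophage marker genes examined (Csf1r, Adgre1, Itgam, Cd68, Lyz2, Spi1 and Cd14) had an RNAPII-pS5 peak in all 12 samples. Of markers of other cells, 2 of 7 T cell genes (Cd3d and Lck), 1 of 6 B cell genes (Ms4a1), 2 of 4 dendritic cell genes (Flt3 and Xcr1), 0 of 6 neutrophil genes and 0 of 5 fibroblast genes had a peak in all 12. A peak in some but not all of the 12 was found for 3 T cell, 3 B cell, 4 neutrophil and 1 fibroblast gene. Among them were Cd2 (9 samples), Cd79b (8), and Cd4, Cd79a and Mmp8 (7 each). No peak was found for 2 T cell, 2 B cell, 2 dendritic cell, 2 neutrophil and 4 fibroblast genes. Changes are given on the log2 scale relative to the median of the regions shared by all samples of an antibody. That median moved by 1.04 with LPS, 0.27 with IL-4 before LPS and -0.19 with IL-4 alone for p65, by -0.18 with LPS and 0.19 with IL-4 before LPS for RNAPII-pS5, and by 0.19 with LPS for RNAPII-pS2. With 1 hr of IL-4 it moved by 0.67 for p300, 0.33 for PU.1, -0.32 for HDAC1, 0.29 for HDAC3 and -0.11 for RNAPII-pS5. For the difference of the LPS effects it moved by 0.46 for p65 and 0.17 for RNAPII-pS5, and in all other comparisons by less than 0.1. In such bulk samples, fewer cells carrying a signal and less signal per cell cannot be told apart.

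LPS raised both phosphorylated forms of RNAPII at Tnf, the gene of the locus that macrophages are known to induce. The highest RNAPII-pS5 score on Tnf was 39.73 and 35.12 in ctrl/ctrl, 89.41 and 78.38 in IL-4 PT/ctrl, 81.16 and 78.34 in ctrl/LPS, and 76.14 and 76.45 in IL-4 PT/LPS. Both ctrl/ctrl samples lay below the 6 others, IL-4 PT/ctrl and ctrl/LPS overlapped, and both IL-4 PT/LPS samples lay just below those 4. The rise with LPS was 1.27 on the log2 scale (SE 0.10, limma adjusted p = 0.0015), and that with 24 hr of IL-4 alone was 1.15 (SE 0.10, adjusted p = 0.0019). After LPS, the pretreated cells differed from the naive cells by -0.25 (95% interval -0.51 to -0.0024, adjusted p = 0.19). LPS thus changed the score by 1.40 log2 units less in pretreated than in naive cells (SE 0.14, adjusted p = 0.0082 for the difference of the LPS effects). Among the 27609 regions tested with this antibody, 30.4% were called for LPS, 16.8% for IL-4 alone, 14.4% for IL-4 PT/LPS against ctrl/LPS and 17.7% for the difference. Of the 3 regions of the locus, the Tnf region was called in 3 of these 4 comparisons and the other 2 in none. An exact permutation test of 2 samples against 2 cannot go below p = 0.333, so all calls rest on the spread that limma shares among regions.

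**Figure D1:**
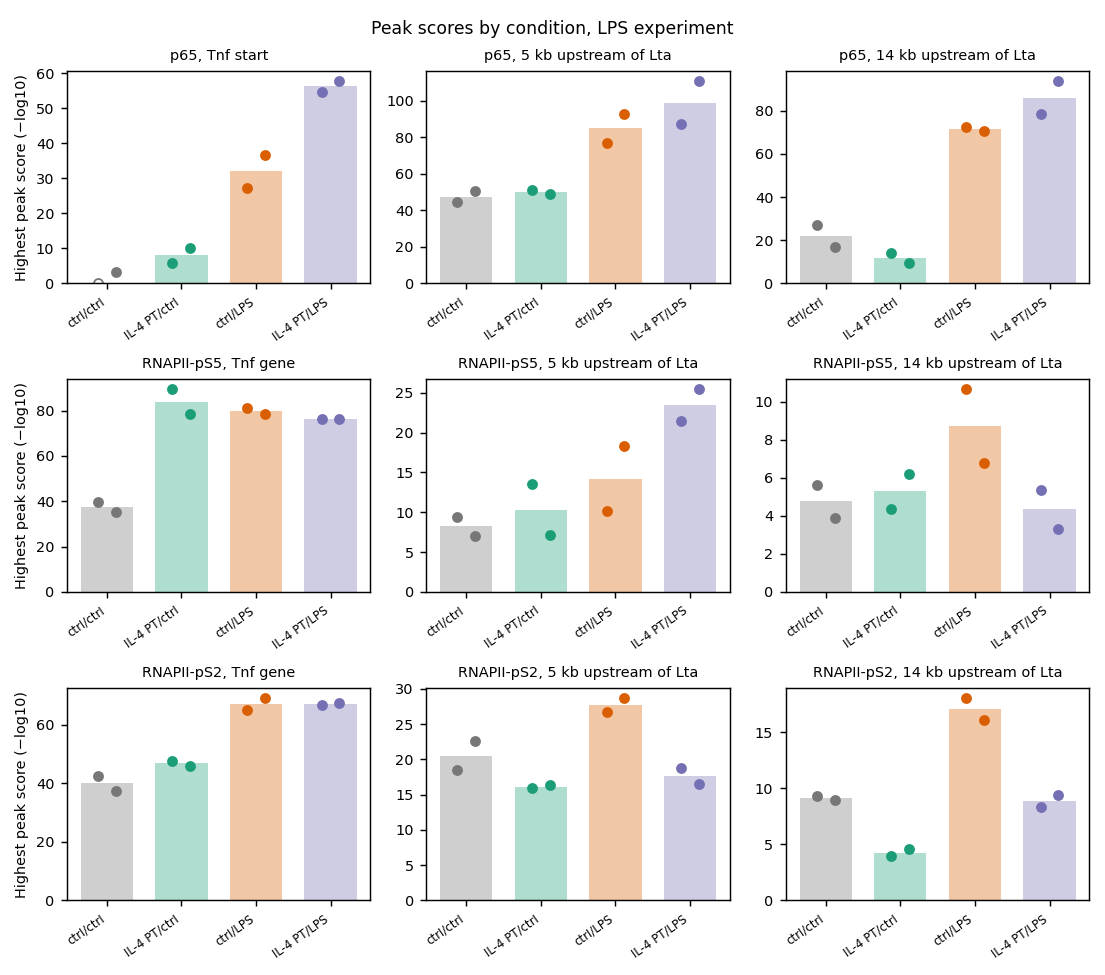
Peak scores (vertical axis, −log10 scale) of p65, RNAPII-pS5 and RNAPII-pS2 (rows) at Tnf and at the elements about 5 and 14 kb upstream of Lta (columns) in the 4 conditions of the LPS experiment, with 1 point per replicate, a bar at the mean where both replicates have a peak, and an open circle at 0 for no listed peak. The RNAPII-pS5 scores on Tnf sit at 35.12 and 39.73 in ctrl/ctrl and between 76.14 and 89.41 in the other 6 samples, whereas p65 at the Tnf start climbs from no peak or 3.34 to 54.79 and 57.87.

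RNAPII-pS2 on Tnf scored 42.64 and 37.54 in ctrl/ctrl, 47.65 and 46.1 in IL-4 PT/ctrl, 65.13 and 69.26 in ctrl/LPS, and 66.7 and 67.43 in IL-4 PT/LPS. The 4 LPS samples were above all 4 samples without LPS. The rise with LPS was 0.56 (SE 0.12, adjusted p = 0.014). It lost the call without ctrl/ctrl replicate 2 and without ctrl/LPS replicate 2, and held in 14 of 20 alternatives. The change with IL-4 alone (0.28, SE 0.12, adjusted p = 0.17), with IL-4 before LPS (0.05, 95% interval -0.24 to 0.35) and the difference of the LPS effects (-0.22, 95% interval -0.64 to 0.19, adjusted p = 0.44) were not called. Of 39261 RNAPII-pS2 regions, 34.3%, 22.6%, 17.7% and 20.2% were called in the same 4 comparisons. The score on Tnf stood between the 97.1st and 99.1st percentile of each list for RNAPII-pS2 and between the 98.3rd and 99.8th for RNAPII-pS5, so Tnf was among the strongest polymerase peaks in every condition, ctrl/ctrl included.

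A height does not show how far along the gene the peaks reached. The Tnf gene is 2627 bp long, and RNAPII-pS5 peaks covered 36.4% and 16.3% of it in ctrl/ctrl, 44.2% and 53.3% in IL-4 PT/ctrl, and 100% in each of the 4 LPS samples. RNAPII-pS2 peaks covered 32.2% and 26.4%, 60.8% and 51.2%, and again 100% in each of the 4 LPS samples. Coverage in IL-4 PT/ctrl lay above that in ctrl/ctrl and below that with LPS for both antibodies. After LPS, a single peak of 4170 to 4199 bp (pS5) or 4073 to 4193 bp (pS2) spanned the gene and ran 1424 to 1556 bp past its 3′ end, against a median peak width of 429 to 516 bp in those lists. In the 8 samples of this experiment without LPS no peak on the gene ran past its 3′ end, although 2 of them had a small separate peak there, with a score of 4.51 (RNAPII-pS5, ctrl/ctrl replicate 2, chr17:35198787-35199087) and 5.69 (RNAPII-pS2, IL-4 PT/ctrl replicate 2, chr17:35198802-35199125). Once LPS was given, IL-4 pretreated and naive cells were all at the upper limit of this measure. With IL-4 alone the RNAPII-pS5 scores overlapped those of LPS-treated cells, while the covered lengths did not. Coverage was chosen after the values were seen and has no test.

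**Figure D2:**
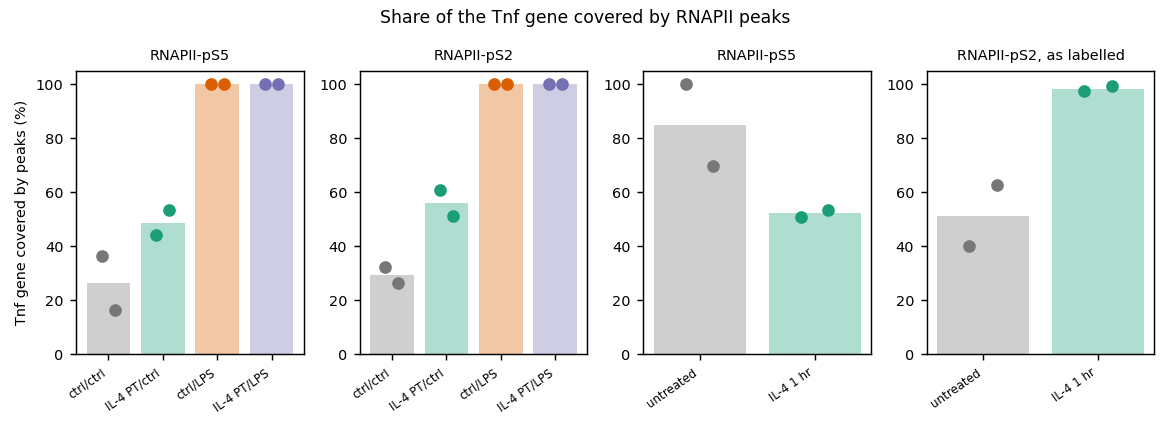
Share of the Tnf gene covered by RNAPII-pS5 and RNAPII-pS2 peaks (vertical axis, percent of 2627 bp) in each condition of both experiments (4 panels), with 1 point per replicate and a bar at the mean. RNAPII-pS2 at 1 hr is shown as labelled. All 8 LPS-treated lists are at 100%, and the ctrl/ctrl lists lie between 16.3% and 36.4%. In the 1 hr experiment, without LPS, the RNAPII-pS5 list of untreated replicate 1 is also at 100%. The RNAPII-pS2 lists labelled IL-4 are at 97.4% and 99.3%.

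**Figure D3:**
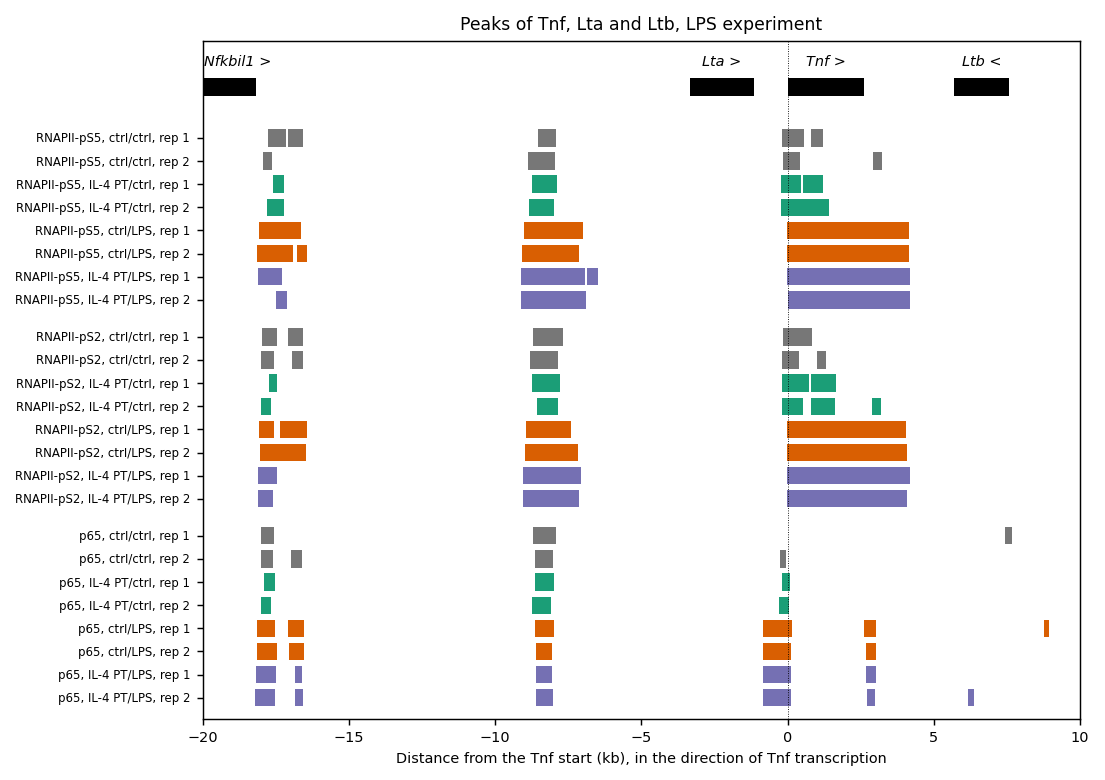
Peaks annotated to Tnf, Lta or Ltb in the LPS experiment, drawn by distance from the Tnf start (horizontal axis, kb) with 1 row per list and the genes on top. Only peaks with these 3 gene names are shown. The Lta -4.9 kb element has a peak in every row, and the Tnf peaks widen over the whole gene in the LPS rows.

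p65 was called higher with LPS at the Tnf start, and at the Tnf 3′ end it had a peak only with LPS. At the Tnf start p65 had no peak and 3.34 in ctrl/ctrl, 5.75 and 10.22 in IL-4 PT/ctrl, 27.24 and 36.75 in ctrl/LPS, and 54.79 and 57.87 in IL-4 PT/LPS. The samples of the 4 conditions did not overlap, and the peak stood at the 5.74th percentile of its list in ctrl/ctrl replicate 2 and at the 95.6th and 95.8th in IL-4 PT/LPS. The rise with LPS was 2.87 on the log2 scale (SE 0.53, adjusted p = 0.0080), with the missing peak set to the lowest p65 score, and it ranged from 1.42 to 3.92 over the alternatives. At the Tnf 3′ end, where the window with 2 κB matches lies, p65 had no peak in any of the 4 samples without LPS, 14.99 and 18.75 in ctrl/LPS, and 19.74 and 18.9 in IL-4 PT/LPS. This region entered the test only through the LPS samples, and all samples without LPS received the same lowest score. Its LPS call (limma adjusted p = 0.00081) follows from that filter and score, so nothing is concluded from it. The fitted size depends on the lowest score (0.50 to 3.68 over the alternatives).

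At the Lta -5.0 kb element p65 was present in all 8 samples. The scores were 44.31 and 50.73 in ctrl/ctrl, 50.9 and 48.73 in IL-4 PT/ctrl, 76.99 and 92.69 in ctrl/LPS, and 87.16 and 110.97 in IL-4 PT/LPS, between the 96.9th and 99.5th percentile of the lists. At the Lta -14.5 kb element they were 26.94 and 16.72, 14.04 and 9.62, 72.34 and 70.62, and 78.25 and 93.86. At both elements all LPS samples scored above all samples without LPS. The p65 lists held 9556 to 9706 peaks in ctrl/ctrl, 10253 to 11026 in IL-4 PT/ctrl, 26305 to 26820 in ctrl/LPS, and 36738 to 38955 in IL-4 PT/LPS. Relative to the shared median, the LPS change was -0.21 at Lta -5.0 kb (SE 0.15, adjusted p = 0.31) and 0.71 at Lta -14.5 kb (SE 0.28, adjusted p = 0.090), and without centring it was 0.83 (adjusted p = 0.011) and 1.75 (adjusted p = 0.0061). The direction at Lta -5.0 kb therefore flips with the scaling, while the Tnf start rose under both. At Lta -13.5 kb the scores were none and 12.23 in ctrl/ctrl, 14.51 and 20.42 in ctrl/LPS, and 5.26 and 7.92 in IL-4 PT/LPS, with no peak in IL-4 PT/ctrl.

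Of the 5 p65 regions tested at the locus, 2 were called for LPS, against 46.9% of all 37564 regions. They were the Tnf start and the Tnf 3′ end, whose call rests on its missing peaks. For IL-4 alone 0 of 5 were called by limma, against 4.37% of all. For IL-4 PT/LPS against ctrl/LPS 0 of 5 were called against 30.9%, and for the difference of the LPS effects 0 of 5 against 23.3%. At an unadjusted p of at most 0.05 the counts were 1, 0 and 0 of 5. Those of all 37564 regions were 3872, 14904 and 12405. At the Tnf start the p65 change with IL-4 before LPS was 0.56 (95% interval -0.75 to 1.87, adjusted p = 0.50) and that with IL-4 alone was 2.07 (95% interval 0.76 to 3.38, adjusted p = 0.14). Both had the higher scores in the IL-4 samples. These intervals leave room for changes of more than 1 log2 unit. p65 peaks named Ltb were isolated. The Ltb -1.3 kb element scored 6.34 in ctrl/LPS replicate 1, the Ltb start 9.05 in ctrl/ctrl replicate 1 and the Ltb body 7.16 in IL-4 PT/LPS replicate 2, each in 1 replicate of that condition and in no other sample, so none entered a test.

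RNAPII was also present at the elements upstream of Lta, at lower scores than on Tnf. RNAPII-pS5 at Lta -4.7 kb scored 9.41 and 7.08 in ctrl/ctrl, 13.52 and 7.1 in IL-4 PT/ctrl, 10.1 and 18.26 in ctrl/LPS, and 21.5 and 25.44 in IL-4 PT/LPS. ctrl/LPS lay above ctrl/ctrl and overlapped IL-4 PT/ctrl, IL-4 PT/LPS lay above all others, and no comparison was called (LPS 0.91, SE 0.42, adjusted p = 0.17). At Lta -13.9 kb the pS5 scores were 5.65 and 3.9, 4.37 and 6.21, 10.66 and 6.78, and 5.38 and 3.3, and both ctrl/LPS samples were above the rest (LPS 1.04, SE 0.43, adjusted p = 0.13). Of the 3 pS5 regions 0 were called for IL-4 PT/LPS against ctrl/LPS by limma, against 14.4% of all. At an unadjusted p of at most 0.05 there were 2 of 3, against 7007 of all 27609 regions. A further upstream peak, at Lta -3.3 kb, scored 4.41 in IL-4 PT/LPS replicate 1 and was absent elsewhere.

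RNAPII-pS2 at the upstream elements was lower after IL-4. At Lta -13.9 kb it scored 9.35 and 8.94 in ctrl/ctrl, 3.93 and 4.58 in IL-4 PT/ctrl, 18.07 and 16.05 in ctrl/LPS, and 8.3 and 9.36 in IL-4 PT/LPS. IL-4 samples lay below their controls with and without LPS. The fall was 1.06 without LPS (-1.06, SE 0.23, adjusted p = 0.022) and 0.89 with LPS (-0.89, SE 0.23, adjusted p = 0.048), and the LPS effects with and without IL-4 differed by 0.16 (95% interval -0.64 to 0.97). The call with LPS held in 9 of 20 alternatives (-1.33 to -0.79). It was lost without either replicate of ctrl/LPS, IL-4 PT/LPS or ctrl/ctrl, at an adjusted p of up to 0.15, and with the replicate number as a block (adjusted p = 0.092). The call without LPS held in 13 of 20 alternatives and was lost without ctrl/ctrl replicate 1, ctrl/ctrl replicate 2 or IL-4 PT/ctrl replicate 1. The size ran from -1.80 with summed scores to -0.67 with a floor 4 times as high and -0.26 with the upper 50% of peaks. At Lta -4.7 kb the pS2 scores were 18.47 and 22.57, 15.93 and 16.39, 26.77 and 28.74, and 18.85 and 16.57, again lower in both IL-4 groups, but this was not called (-0.59 with LPS, SE 0.20, adjusted p = 0.11, and -0.29 without, SE 0.20, adjusted p = 0.41). Of the 3 pS2 regions, 1 was called for LPS (Tnf), 1 for IL-4 alone and 1 for IL-4 before LPS. For the difference of the LPS effects 0 were called. There, 0 of 3 had an unadjusted limma p of at most 0.05, against 12080 of all 39261 regions.

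After 1 hr of IL-4 without LPS, acetylation of histone H3 on lysine 27, a mark of active promoters and enhancers, was lower on Tnf. The H3K27Ac region in the Tnf gene (chr17:35200709-35201789) had 518.5 and 480.8 normalized tags in untreated cells and 324.5 and 312.4 with IL-4, without overlap. The fall was 0.60 log2 units (-0.60, SE 0.05, limma adjusted p = 0.0028), and it was called in 15 of 15 alternatives. The values of each list rose in steps of a constant size, that of 1 tag, from which 1689 and 1539 tags in untreated cells and 980 and 900 with IL-4 were read back. The region at Lta -5.0 kb had 318.3 and 282.7 against 251.6 and 245.8 normalized tags, again without overlap, and missed the threshold (-0.22, SE 0.07, adjusted p = 0.067). Of the 2 regions 1 was called, against 43.4% of the 28929 H3K27Ac regions. On Tnf the list percentile went from 98.1 and 97.9 to 92.4 and 91.8. No H3K27Ac region was named Ltb.

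RNAPII-pS5 on Tnf scored 136.8 and 144.54 in untreated cells and 176 and 152.17 after 1 hr of IL-4. The IL-4 samples were higher, but the change was not called (0.33, 95% interval -0.06 to 0.73, adjusted p = 0.31). Its peaks covered 100% and 69.9% of the gene in untreated cells and 50.9% and 53.5% with IL-4. Covered length and score thus went in opposite directions. In untreated replicate 1, without LPS, the peak on Tnf ran 665 bp past the 3′ end. At Lta -5.0 kb RNAPII-pS5 scored 31.74 and 22.47 untreated and 23.77 and 12.89 with IL-4, which overlapped. At Lta -14.0 kb it scored 10.85 and 4.97 in untreated cells and had no peak with IL-4 (adjusted p = 0.11). Of the 3 regions tested limma called 0, against 1.36% of 32095. At an unadjusted p of at most 0.05 there was 1 of 3, against 7046 of 32095.

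For RNAPII-pS2 the direction depends on which treatment is right. The libraries labelled untreated scored 22.08 and 23.58 on Tnf and those labelled IL-4 55.41 and 67.82, a rise of 1.47 as labelled (SE 0.20, adjusted p = 0.0025). By the treatment in the peak names, the same values are a fall with IL-4. In these libraries Socs1 and Cish, which IL-4 is known to induce, were lower by 5.46 and 5.27 log2 units where IL-4 is the label (-5.46 and -5.27), while in the RNAPII-pS5 libraries they were higher by 1.79 and 1.57. For the whole list of 29 IL-4 response genes, RNAPII-pS2 rose at 4 and fell at 15 of 27 as labelled (2.93% and 2.72% of all genes), RNAPII-pS5 rose at 4 and fell at 1 of 28 (0.838% and 0.638%), and H3K27Ac rose at 15 and fell at 5 of 25 (16% and 20.2%). Peaks covered 40.0% and 62.6% of Tnf in the libraries labelled untreated and 97.4% and 99.3% in those labelled IL-4. They ran past the 3′ end by 778 and 985 bp in the former and 1150 and 1186 bp in the latter. At Lta -4.9 kb the scores as labelled were 4.17 and 5.77 against 7.55 and 7.92, and at Lta -14.2 kb 5.75 and 7.14 against 5.75 and 8.15, and neither was called. So 1 of 3 regions was called, against 2.90% of 18314. The Tnf call was lost without centring (adjusted p = 0.14), with summed scores and without the trend of the spread.

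p300, the acetyltransferase that writes H3K27Ac, had 9 regions at the locus, of which 8 had a peak in at least 2 samples. On the Tnf body it scored 23.12 and 89.49 untreated and 67.36 and 61.1 with IL-4, at the Tnf start 18.39 and 32.69 against 31.41 and 34.6, at Lta -4.9 kb 58.95 and 116.44 against 86.18 and 84.32, at Lta -13.5 kb 16.77 and 29.38 against 7.96 and 19.21, and at Lta -14.5 kb 44.61 and 120.42 against 75.15 and 58.1. In each of these 5 the untreated samples overlapped the IL-4 samples. Relative to the median, the 3 Lta elements were called lower with IL-4 (-0.63, -1.51 and -0.82, adjusted p = 0.044, 0.012 and 0.0065), so 3 of 8 were called against 21% of 67229. The calls depended on untreated replicate 1, the list that stood apart: without it 0 were called. With either of the IL-4 replicates left out 1 region was called, and without centring 0 were, where Lta -4.9 kb turned to 0.04. The smaller peaks were at Ltb -1.3 kb (none and 6.45 untreated, 12.66 and 10.66 with IL-4), in the Ltb body (none in both untreated samples, 6.19 and 7.22 with IL-4), at Lta -3.1 kb (none and 10.2, none and 8.49) and at Lta -9.5 kb (11.43 in IL-4 replicate 2 only).

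PU.1, the transcription factor that defines the myeloid lineage and is encoded by Spi1, had modest peaks across the locus. At the Tnf start it scored 19.15 and 9.4 untreated and 9.11 and 7.31 with IL-4, which did not overlap (-1.05, 95% interval -2.33 to 0.23, adjusted p = 0.55). At Lta -14.4 kb it scored 24.31 and 20.06 against 4.94 and 16, also lower in both IL-4 samples (-1.65, SE 0.61, adjusted p = 0.44). At Ltb -1.3 kb, the most regular Ltb peak in the lists, PU.1 scored 8.82 and 5.92 untreated and 17.8 and 14.88 with IL-4, higher in both IL-4 samples (0.84, 95% interval -0.39 to 2.07, adjusted p = 0.64). Lta -4.8 kb had 8.59 and 13.14 against 16.2 and 16.09. The larger Tnf body region had 23.43 and 4.15 against 15.5 and 16.41, where the replicates of untreated cells differed more than the groups. Smaller regions were a second one in the Tnf body (5.76 and none untreated, none and 4.42 with IL-4), Tnf -0.5 kb (7.5 and none, 4.44 and none), Lta -3.1 kb (none and 10.85, 9.19 and none), Lta -9.5 kb (none in both, 2.81 and 5.23) and Lta -13.6 kb (4.18 and none, none and 9.95). Peaks in a single list were at Ltb +3.0 kb (4.42, IL-4 replicate 2), Tnf +3.4 kb (5.76, untreated replicate 1) and Lta -5.3 kb (4.15, untreated replicate 2). By limma 0 of 10 tested regions were called, against 0.0735% of 67996, so the antibody gave few calls anywhere. At an unadjusted p of at most 0.05 there was 1 of 10, against 7202 of 67996.

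**Figure D4:**
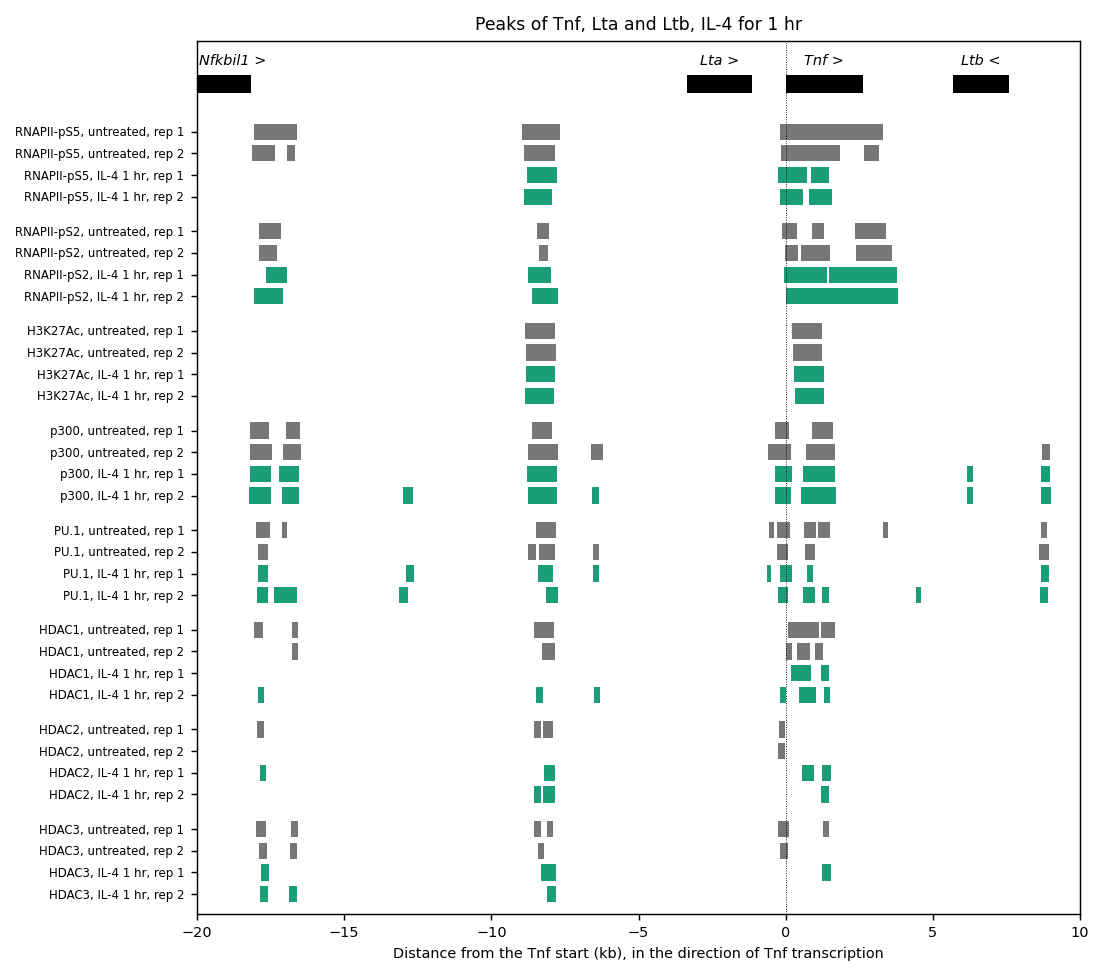
Peaks annotated to Tnf, Lta or Ltb in the 1 hr experiment by distance from the Tnf start (horizontal axis, kb), 1 row per list, genes on top. Only peaks with these 3 gene names are shown. PU.1 and p300 are the antibodies of this experiment with peaks named Ltb, and H3K27Ac has 1 region on Tnf and 1 upstream of Lta in each of its 4 lists.

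The 3 histone deacetylases, enzymes that remove acetyl groups, gave low scores. HDAC1 on the Tnf body scored 8.51 and 8.34 untreated and 8.37 and 7.58 with IL-4, a difference of 0.24 after centring (95% interval -0.67 to 1.14). At Lta -4.9 kb HDAC1 had 7.23 and 6.12 untreated and none and 3.58 with IL-4, and at Lta -13.3 kb 4.93 and 5.84 untreated and no peak with IL-4. Lta -14.5 kb had 6.96 and none against none and 4.99. HDAC2 had 4.55 and 5.11 just upstream of the Tnf start (Tnf -0.1 kb) in untreated cells and no peak with IL-4, and 2.83 and 2.89 in the Tnf body with IL-4 only. At Lta -4.7 kb HDAC2 scored 5.44 and none untreated against 10.05 and 3.91 with IL-4 (1.14, SE 0.98, adjusted p = 0.74), at Lta -5.1 kb 5.15 and none against none and 2.39, and at Lta -14.5 kb 5.79 and none against 3.79 and none. Peaks in a single IL-4 list were at Tnf -0.1 kb (3.66) and Lta -3.1 kb (1.89) for HDAC1 and at another place in the Tnf body (3.88) for HDAC2. The libraries labelled HDAC3 had 10.62 and 4.93 at the Tnf start untreated and no peak with IL-4, and at Lta -14.4 kb 7.87 and 14.34 against 12.44 and 11.33, which overlapped. They had 3.7 and none against 10.45 and none in the Tnf body, 7.67 and 6.79 against 9.14 and 4.93 at Lta -4.8 kb, and 9.33 and 10.63 against none and 10.31 at Lta -13.4 kb. These changes went in both directions. limma called 0 of 4 regions for HDAC1, 0 of 5 for HDAC2 and 0 of 5 for HDAC3 (1 unadjusted in each), against 0%, 0.00404% and 1.32% of 27384, 24751 and 12567 regions. Unadjusted, 3595, 2820 and 2343 regions of these antibodies were at p of at most 0.05.

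Over genes, with the scores of all peaks of a gene summed, the pathway downstream of these cytokines was compared with all genes. Of 29 genes for receptors and signal carriers of TNF and lymphotoxin, 26 were tested for RNAPII-pS5 with LPS, and 7 rose and 1 fell, against 10.5% and 17.7% of all 12477 genes. Without centring 5 rose and 4 fell, against 7.40% and 24.9%. Among them were the kinase Ripk1 (2.86, SE 0.59, adjusted p = 0.013), the adaptor Traf1 (2.57, SE 0.40) and the ubiquitin ligase Birc3 (2.49, SE 0.39), while Tab1, a partner of the kinase TAK1, fell (-2.47, SE 0.53, adjusted p = 0.015). RNAPII-pS2 rose at 6 and fell at 2 of 25, against 15.3% and 18.1% of 13663 genes (9 and 2 without centring, against 18.1% and 12.9%). The largest changes were at Rnf31 of the linear ubiquitin ligase (-3.05, SE 0.56), Chuk (-2.64, SE 0.66), Traf3 (2.36, SE 0.35) and Traf2 (1.62, SE 0.36). The median change of the list was 0.13 for pS5 and 0.42 for pS2, and that of all genes -0.31 and -0.22. p65 rose at 6 and fell at 4 of 23, against 19.7% and 17.2% of 12312 genes, and without centring at 16 and 1 against 51.2% and 1.01%, so the split depends on the scaling. Tnfrsf1a, the gene of TNFR1, rose under both (3.07, SE 0.37, and 1.03 and 1.89 in RNAPII-pS2 and RNAPII-pS5 with centring). With centring, p65 fell at Cyld (-2.93, SE 0.43) and rose at Ikbkb (2.89, SE 0.36) and Tab2 (2.58, SE 0.36).

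The same genes were also compared between IL-4 pretreated and naive cells after LPS. RNAPII-pS5 rose at 0 and fell at 2 of 26 (6.72% and 5.39% of all genes), namely Tnfrsf14, a receptor that binds lymphotoxin alpha (-1.63, SE 0.37, adjusted p = 0.034), and Map3k7, which encodes TAK1 (-1.31, SE 0.31, adjusted p = 0.039). RNAPII-pS2 rose at 1, Fadd, and fell at 4 of 25 (6.87% and 4.79% of all genes), namely Map3k14, the kinase of the noncanonical NF-κB pathway (-1.77, SE 0.30), Tab2 (-1.03, SE 0.18), Otulin, which removes linear ubiquitin chains (-0.88, SE 0.16), and again Tnfrsf14. p65 rose at 0 and fell at 1 of 23, Birc3 (-0.78, SE 0.14), against 9.92% and 2.63% of all genes, and without centring rose at 2 and fell at 0 against 19.3% and 1.39%. With 1 hr of IL-4, H3K27Ac rose at 3 and fell at 5 of 25, against 16% and 20.2% of 13035 genes, with Tab3 at 0.98 (SE 0.11), Tab2 at -0.48 (SE 0.06), Ripk1 at -0.44 (SE 0.07) and Tnfrsf14 at -0.41 (SE 0.04).

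The NF-κB response and the neighbouring genes were counted in the same way. Of 34 NF-κB response genes, RNAPII-pS5 rose with LPS at 24 and fell at 0, RNAPII-pS2 at 17 and 0, and p65 at 11 and 9, against 10.5% and 17.7%, 15.3% and 18.1%, and 19.7% and 17.2% of all genes, with Cxcl3 at 4.30 (SE 0.38) and Sod2 at 3.64 (SE 0.75) for pS5. Without centring the counts were 19 and 1, 18 and 0, and 30 and 0, against 7.40% and 24.9%, 18.1% and 12.9%, and 51.2% and 1.01%. With IL-4 before LPS they were 1 and 5, 2 and 2, and 0 and 3, against 6.72% and 5.39%, 6.87% and 4.79%, and 9.92% and 2.63%. Without centring they were 1 and 3, 1 and 1, and 8 and 0, against 10.2% and 3.50%, 6.52% and 3.56%, and 19.3% and 1.39%. H3K27Ac rose at 9 and fell at 12 of 32 with 1 hr of IL-4, against 16% and 20.2%. Of 12 neighbours of the locus, RNAPII-pS5 rose with LPS at 0 and fell at 1 of 6 (Prrc2a, -2.50, SE 0.37), RNAPII-pS2 at 0 and 3 of 7 (Lst1, -2.36, Prrc2a, -1.90, and Aif1, -1.31) and p65 at 0 and 2 of 7 (Lst1, -2.57, and Aif1, -1.52). Without centring the pS2 falls came down to 1, pS5 had 2, and p65 turned to 2 rises and 0 falls. With IL-4 before LPS only pS5 called a neighbour (Prrc2a, -1.88, SE 0.37), and H3K27Ac called 1 higher and 1 lower of 6 with 1 hr of IL-4. The shares of all genes beside these neighbour counts are those given for the NF-κB response genes, and nothing is read from counts over so few genes.

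Over the 24 samples of the LPS experiment and 10105 genes, with each antibody centred on its own mean, the gene scores most like that of Tnf were those of Gcnt2 (Pearson r = 0.92), Csf3 (0.92), BC061194 (0.91), Socs6 (0.91) and Pnp (0.91). Those most like Lta were H2-Q5 (0.84), Pea15a (0.84), Ccm2l (0.83), Birc3 (0.82) and Aim2 (0.80). Between the Tnf and Lta scores r was -0.15. The Lta score sums intergenic peaks upstream of the gene, and none reached to within 100 bp of its start. Correlations with Lta therefore describe those peaks and not the gene itself. The p65 score of Lta also depends on the scaling. Relative to the shared median it fell with LPS (-0.44, SE 0.11, limma adjusted p = 0.026). Before centring, the Lta elements with a p65 peak in every sample scored higher in all LPS samples. Whether r changes with the scaling was not tested. Ltb did not have a peak in 2 samples of each antibody. The correlations describe the same 24 samples, which share their depth and conditions, and they have no test.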

How the data were processed

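Peak lists from ChIP-seq of mouse BMDMs were analysed, 1 per sample. Per the submitters' processing notes, the tools were BWA 0.7.10, SAMtools 0.1.19, MACS2 2.0.10 and HOMER 4.2, with mm10 as the genome. The authors called peaks in each sample separately, removed blacklisted regions and annotated each peak to its nearest gene with HOMER. For all antibodies but H3K27Ac the deposited peak score was read as a −log10 value of MACS2, a unit inferred from the values. For H3K27Ac the deposited value is a signal, the normalized tags of HOMER in regions of fixed width. No reads were in the files, so the depth of the −log10 lists is unknown and no counting interval could be given for them. For H3K27Ac, whole tags were read back from the step between values.

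Peaks of 1 antibody and experiment that overlapped by at least 1 bp were merged, and the highest score of a sample was taken. Regions with a peak in at least 2 samples were kept. A missing peak received the lowest score of that antibody's lists, and log2 scores were centred within each list on the median over regions that every sample shares. Conditions were compared with limma 3.58.1 in R 4.3.3 (a variance trend, all 4 conditions of the LPS experiment in 1 fit), and p-values were adjusted by the Benjamini-Hochberg method over all regions of the antibody, with 0.05 as the threshold. The study describes its replicates as independent. An exact permutation test of 2 samples against 2 cannot give a p under 0.333, so these calls rest on limma's shared spread. The fit was tested on simulated data without missing peaks, for PU.1 and p65 only. For genes, the scores of all peaks of a gene were summed and fitted in the same way.

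The members and the gene lists (29 TNF and lymphotoxin pathway genes, 34 NF-κB response genes, 29 IL-4 response genes, 12 neighbours and the cell type markers) were chosen with earlier results of these data known, and 1 marker is not reported here. Up to 4 called genes with the largest change were named per list and comparison, together with every region of the 3 genes, the 5 genes most like each of them, and Socs1 and Cish as a check of the labels. Older gene symbols were matched through RefSeq synonyms (Chi3l3, Emr1, Fam105b and Sfpi1, for Chil3, Adgre1, Otulin and Spi1). The covered length of Tnf, the tags read back from H3K27Ac, and the gene counts without centring or with quantile normalization were added after seeing the data. The alternatives tried were no centring, quantile normalization, a lowest score 4 times as high, other filters, summed scores, other overlaps, the upper 50% of peaks, genes as features, no trend, a replicate block, the 2 conditions alone, and leaving out each replicate. Sequences came from RefSeq promoter records and the genome of GRCm38.p6, the assembly of mm10. Scripts used Python 3.11.15 and pandas 2.3.3.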

Additional observations from a re-analysis of the deposited data

Results flagged for a closer look

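The LPS effect on RNAPII-pS5 at the Tnf gene differed between cells with and without IL-4 pretreatment, by a test of the difference itself (-1.40 on the log2 scale, limma adjusted p = 0.0082). Without pretreatment the scores were 39.73 and 35.12 in ctrl/ctrl and 81.16 and 78.34 in ctrl/LPS. With pretreatment they were 89.41 and 78.38 in IL-4 PT/ctrl and 76.14 and 76.45 in IL-4 PT/LPS. For RNAPII-pS2 on Tnf this difference was not called (-0.22, limma adjusted p = 0.44). RNAPII-pS5 peaks covered 44.2% and 53.3% of Tnf in IL-4 PT/ctrl and 100% in both IL-4 PT/LPS samples.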

How the results depend on the processing

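The 59 log2 changes examined were each refitted under the alternatives, and pairs of change and alternative were counted. Of these pairs, 953 kept their direction and side of the threshold, 18 gained the call, 47 lost it and 40 turned. A change that was never called and stayed uncalled counts as kept. The causes were not tested. The RNAPII-pS5 rise on Tnf with LPS held in 20 of 20 alternatives and the difference of its LPS effects in 19 of 19. The H3K27Ac fall on Tnf held in 15 of 15, and the p65 rise with LPS at the Tnf start in 18 of 19. At the Tnf 3′ end the p65 call held in 19 of 19, but it rests on missing peaks. Asking for a peak in every sample drops that region. Counts of called regions of the locus moved as follows. For H3K27Ac, 1 became 2 without centring, with quantile normalization, a floor 4 times as high, a peak in every sample, the upper 50% of peaks and genes as features, and leaving out 1 replicate gave 1 to 2 (2 without untreated replicate 2). For RNAPII-pS2 at 1 hr, 1 became 0 without centring, with summed scores and without the trend. For RNAPII-pS2 with LPS, 1 became 2 without centring and 0 with quantile normalization, the upper 50% of peaks, genes, no trend and only the 2 conditions, with 0 to 1 when leaving out a replicate. For RNAPII-pS2 with IL-4 alone, 1 became 2 with summed scores and 0 with the higher floor, a peak in every sample, the upper 50%, genes and only the 2 conditions (0 to 1). For RNAPII-pS2 with IL-4 before LPS, 1 became 0 with a peak in every sample, in at least 1 sample, summed scores and only the 2 conditions (0 to 1). For RNAPII-pS5, 1 became 2 for LPS with the higher floor and with genes, 1 became 0 for IL-4 alone with only the 2 conditions, and 0 became 1 for IL-4 before LPS with the higher floor. For p300, 3 became 0 without centring, with a peak in at least 1 sample and without the trend, and 1 with the upper 50% and with genes, and leaving out a replicate gave 0 to 2. For p65 with LPS, 2 became 4 without centring and 1 with quantile normalization or a peak in every sample. For p65 with IL-4 alone 0 became 2 with only the 2 conditions (0 to 1 when leaving out a replicate, with 1 call without ctrl/ctrl replicate 1), and for IL-4 before LPS 0 became 1 with the higher floor, the upper 50% and only the 2 conditions (0 to 1, with 1 call when either of the ctrl/ctrl replicates was left out).

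Single log2 changes turned as follows, most of them small. Without centring, p300 turned from -0.17 to 0.50 on the Tnf body, from -0.24 to 0.43 at the Tnf start (leaving out a replicate, -0.65 to 0.17) and from -0.63 to 0.041 at Lta -4.9 kb, and in the Ltb body from 1.65 to -0.35 with the higher floor. p65 at Lta -5.0 kb turned without centring from -0.21 to 0.83 with LPS and from -0.32 to 0.15 for the difference of the LPS effects. With IL-4 before LPS it turned there from -0.05 to 0.22 without centring, 0.13 with quantile normalization and 0.039 with the upper 50% (-0.19 to 0.086 leaving out a replicate), and at Lta -14.5 kb from -0.0071 to 0.26, 0.11 and 0.082 (-0.10 to 0.086). At the Tnf 3′ end p65 turned from -0.065 to 0.20 and 0.024 with IL-4 before LPS (no centring and upper 50%, -0.22 to 0.093), from 0.19 to 0 and -0.045 with IL-4 alone (no centring and quantile normalization) and from -0.26 to 0.20 for the difference (no centring), and at the Tnf start the difference went from -1.51 to 0.0082 with the upper 50%. RNAPII-pS2 turned on Tnf from 0.055 to -0.0021 with IL-4 before LPS (no centring, -0.027 to 0.14) and at Lta -13.9 kb from 0.16 to -0.23 and -0.61 for the difference (higher floor and upper 50%). RNAPII-pS5 with IL-4 alone turned at Lta -13.9 kb from 0.13 to -0.088 and -0.24 (quantile normalization and summed scores, -0.10 to 0.37) and at Lta -4.7 kb from 0.25 (-0.24 to 0.73), where the difference of 0.35 ran from -0.14 to 0.83. PU.1 turned on the Tnf body from 0.36 to -0.087 with the upper 50% and -0.24 with peaks up to 500 bp apart joined (-0.62 to 1.34), and at Lta -4.8 kb from 0.27 (-0.30 to 0.84).

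Same-numbered replicates did not deviate together (correlations from 0.00012 to 0.060 over 8 pairs at 1 hr and from -0.048 to 0.023 over 18 pairs in the LPS experiment), so the numbers were not taken to pair samples. With the replicate number as a block the H3K27Ac count was 2, with Lta -5.0 kb at an adjusted p of 0.047 in limma, the RNAPII-pS2 count for IL-4 before LPS was 0, and no other call at the locus changed. Without centring, the share of called genes that were higher moved from 53.4% to 98.1% for p65 with LPS, from 79.0% to 93.3% for p65 with IL-4 before LPS (58.0% with quantile normalization), from 37.2% to 22.9% for RNAPII-pS5 with LPS (48.3% with quantile normalization), from 55.5% to 74.5% for RNAPII-pS5 with IL-4 before LPS, and from 45.8% to 58.4% for RNAPII-pS2 with LPS. These scalings of genes were chosen after seeing the data. The unknown depth limits comparisons of scores between lists.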
